A study of Mus musculus with 6 samples.

Results

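Pcbd1, Depdc7, Rnd3, Map2 and Sgk3, genes with no set role in B cells, were followed across B cells carrying MYD88 with the L265P substitution and 2 comparison groups. These 5 of 19818 measured genes were chosen by their log2 differences in these arrays, as genes higher in MYD88_L265P than in both other groups, with no numeric threshold. Their own differences between groups are therefore given as a description, without a test. Each was read by 1 array feature whose annotation named that gene alone. Mature B cells of mouse spleen were activated and infected with a retrovirus that also carried green fluorescent protein. The construct was MYD88 L265P (MYD88_L265P), IKK with the K171E substitution (IKK_K171E) or the empty vector (EV). All 3 groups were put back into mitogen for 36 hours, kept for 24 hours without it, and sorted for fluorescence. Each group had 2 Affymetrix mouse ST 1.0 arrays, labelled as biological replicates. The labels give neither the strain, age or number of the mice, nor the subunit of the IKK construct, nor the species of either coding sequence. The number of arrays limits the precision. With such small groups, each p-value and each SE of a difference below rests on the spread between replicate arrays pooled over the 3 groups. The limma fit then drew this spread towards a value common to all features, with 4.17 prior against 3 residual degrees of freedom.

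MYD88 is the adaptor that carries signals from Toll-like and interleukin-1 receptors to the IKK kinases and on to NF-kB, and the L265P form, known from human B cell lymphomas, signals without a ligand. Pcbd1 encodes pterin-4a-carbinolamine dehydratase, which regenerates tetrahydrobiopterin, the cofactor of the aromatic amino acid hydroxylases, and which also binds the transcription factor HNF1 as its dimerisation cofactor. Depdc7 encodes a DEP domain protein that, in human cells, binds the CARD scaffolds CARMA2 and CARMA3 and takes part in NF-kB activation. Rnd3 is an atypical small GTPase of the actin cytoskeleton that stays bound to GTP. Map2 is best known as the microtubule-associated protein of neuronal dendrites, where it also anchors protein kinase A. Sgk3 is an AGC kinase, related to AKT, that sits on endosomes through a domain that binds phosphatidylinositol phosphates.

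The constructs were read first. Myd88 had a log2 signal of 12.25 and 12.31 in the MYD88_L265P arrays, 9.43 and 9.14 in IKK_K171E, and 9.30 and 9.35 in EV, and the MYD88_L265P arrays alone were high. Ikbkb, the gene of the IKK beta subunit, stood at 9.69 and 9.68 in the MYD88_L265P arrays, at 11.35 and 10.68 in IKK_K171E and at 9.98 and 10.22 in EV, and both IKK_K171E arrays were above the others. Its difference of 0.91 (SE 0.21) in IKK_K171E over EV missed the threshold (limma adjusted p = 0.0848), and that of -1.33 in MYD88_L265P over IKK_K171E passed it (adjusted p = 0.0305). Of 5 B cell markers, 4 had a feature of their own (Cd79a, Cd79b, Ms4a1 and Pax5). Their mean log2 signal was 11.59 to 11.68 in MYD88_L265P arrays, 11.71 to 11.78 in IKK_K171E and 12.00 to 12.07 in EV. Cd79b was the 1 marker called lower in MYD88_L265P than in EV, where 7.33% of all features were called lower. All 4 were lower there at an unadjusted limma p under 0.05, by differences of -0.67 to -0.24, against a median of -0.11 over all genes. The table holds no detection call, so a low signal cannot be told from background.

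The RefSeq sequence before the start was read for Pcbd1, Depdc7, Rnd3 and Map2, and that of Sgk3 was not analysed here. The windows are shown because the 4 genes were high in the same pair of arrays, and each is written from 5′ to 3′ on the strand of its gene in build GRCm38.p6. Capitals mark matches to the NF-kB pattern, GGG and CC with any 5 bases between them, or to the E-box CACGTG, on either strand, and overlapping matches run together. For Map2, whose window overlaps the annotated gene, the 123 of the 250 bases that lie before the outermost annotated start are shown.
Pcbd1, chr10:61089081-61089330, plus strand: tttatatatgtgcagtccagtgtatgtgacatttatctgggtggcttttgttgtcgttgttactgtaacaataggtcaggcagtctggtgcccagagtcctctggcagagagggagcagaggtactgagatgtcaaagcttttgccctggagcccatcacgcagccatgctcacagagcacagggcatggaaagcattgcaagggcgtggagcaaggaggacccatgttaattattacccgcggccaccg
Depdc7, chr2:104742858-104743107, minus strand: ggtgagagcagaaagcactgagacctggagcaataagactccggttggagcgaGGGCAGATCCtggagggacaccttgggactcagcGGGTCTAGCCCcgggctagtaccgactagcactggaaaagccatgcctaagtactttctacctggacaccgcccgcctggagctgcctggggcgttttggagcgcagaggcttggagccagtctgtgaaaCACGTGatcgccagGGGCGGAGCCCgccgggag
Rnd3, chr2:51149112-51149361, minus strand: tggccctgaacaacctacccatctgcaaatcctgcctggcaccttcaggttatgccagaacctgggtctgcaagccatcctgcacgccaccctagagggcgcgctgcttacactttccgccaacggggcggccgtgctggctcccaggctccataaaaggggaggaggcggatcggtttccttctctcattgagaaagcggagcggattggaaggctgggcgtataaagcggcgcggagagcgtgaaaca
Map2, chr1:66175079-66175201, plus strand: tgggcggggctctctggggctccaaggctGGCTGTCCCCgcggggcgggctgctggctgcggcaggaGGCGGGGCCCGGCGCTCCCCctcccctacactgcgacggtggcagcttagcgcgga
In the sequences shown, the NF-kB pattern matched at 5 positions in Depdc7 and at 3 in Map2, counting overlapping matches separately, and at 0 in Pcbd1 and Rnd3. The whole Map2 window of 250 bases held 4 matches, of which 1 lies in the bases not shown. The pattern is loose: 45.8% of 32851 RefSeq windows of 250 bases held it. An E-box lay 33 bases before the start of Depdc7, and 6.02% of windows held one. The GC box GGGCGG, not capitalised above, matched 2 times in the Map2 sequence shown (5 in its whole window), 2 times in Depdc7 and 1 time in Rnd3, against 32.7% of windows with at least 1 match. The octamer ATGCAAAT, the AP-1 pattern TGANTCA and the antioxidant response core TGACNNNGC matched in none of these 4 windows, and 1.60%, 6.75% and 10.2% of windows held them. These are matches of letters within a short window and say nothing of binding.

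Pcbd1 showed the largest difference of the 5 genes. Its log2 signal was 10.67 and 11.04 in MYD88_L265P, 7.81 and 7.69 in IKK_K171E, and 7.66 and 7.73 in EV. The lower MYD88_L265P array lay 2.87 above the highest array of the other groups, whose 4 arrays fell within a narrow band. The difference was 3.16 over EV (SE 0.13, a ratio of 8.92) and 3.11 over IKK_K171E (a ratio of 8.62), and IKK_K171E differed from EV by 0.05. Ranked by the smaller of its rises over EV and over IKK_K171E, Pcbd1 stood at place 2 of all 19818 genes, behind Tmed6 alone and ahead of Myd88 itself, whose signal includes the construct if its sequence is matched by the probes.

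Rnd3 and Map2 had closely similar profiles. Rnd3 had a log2 signal of 9.53 and 10.13 in MYD88_L265P, 7.49 and 7.25 in IKK_K171E, and 7.26 and 7.44 in EV. Its difference was 2.48 over EV (SE 0.19, a ratio of 5.57) and 2.46 over IKK_K171E, which placed it at 7 by the smaller rise. Map2 had 9.10 and 9.95 in MYD88_L265P, 7.07 and 7.24 in IKK_K171E, and 7.13 and 7.22 in EV. Its difference was 2.35 over EV (SE 0.24, a ratio of 5.10) and 2.37 over IKK_K171E, which placed it at 9. For both genes the IKK_K171E and EV arrays overlapped, with differences between these groups of 0.02 for Rnd3 and -0.02 for Map2.

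Depdc7 was the gene among the 5 whose IKK_K171E arrays stood clear of EV. Its log2 signal was 8.91 and 9.54 in MYD88_L265P, 7.19 and 7.13 in IKK_K171E, and 6.60 and 6.45 in EV. The 3 groups did not overlap, and the order was MYD88_L265P, IKK_K171E, EV. The difference was 2.69 for MYD88_L265P over EV (SE 0.19, a ratio of 6.46), 2.06 for MYD88_L265P over IKK_K171E (a ratio of 4.17) and 0.63 for IKK_K171E over EV (a ratio of 1.55). Its place by the smaller rise was 12. The contrast of IKK_K171E with EV is what remains between the 2 contrasts that chose these genes, so it was not tested here either.

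Sgk3 differed far less than the other 4. Its log2 signal was 9.70 and 10.16 in MYD88_L265P, 8.96 and 8.86 in IKK_K171E, and 8.79 and 8.84 in EV. The difference of 1.11 over EV (SE 0.15) and of 1.02 over IKK_K171E correspond to ratios of 2.16 and 2.03, and its place by the smaller rise was 58. Both IKK_K171E arrays were above both EV arrays, by a mean of 0.09, which is less than the SE.

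**Figure D1:**
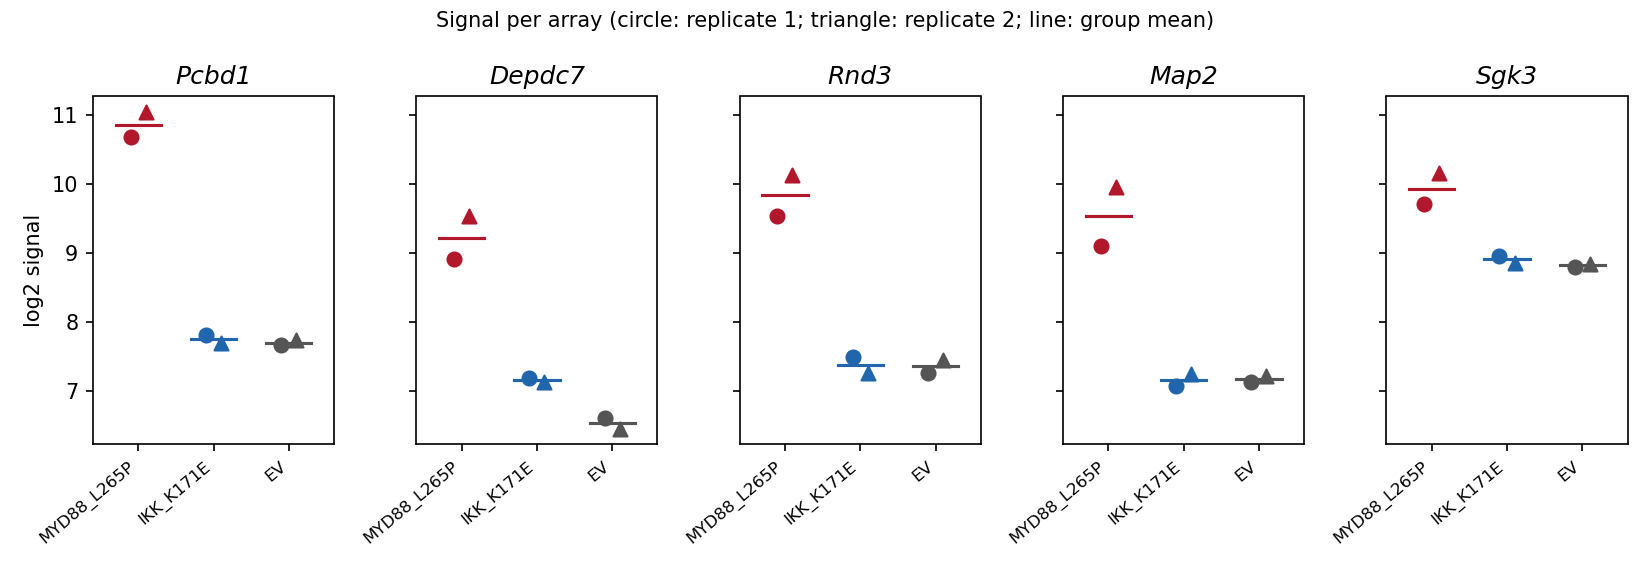
Log2 signal of Pcbd1, Depdc7, Rnd3, Map2 and Sgk3 in each array, with MYD88_L265P, IKK_K171E and EV from left to right in each panel, circles for replicate 1, triangles for replicate 2 and a line at the group mean (n = 2). Both MYD88_L265P arrays lie above all other arrays in every panel, by 0.74 in Sgk3 to 2.87 in Pcbd1, and levels are not comparable between panels because each gene has its own probes.

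For each of the 5 genes both MYD88_L265P arrays lay above all 4 other arrays, a pattern that held for 14.8% of all 21542 features, and which the choice of genes fixes. The choice also fixes that all 5 were higher in both contrasts, where 0.812% of all features were called higher over EV and over IKK_K171E alike. A common feature that the choice did not fix was the order of the MYD88_L265P replicates: replicate 2 was above replicate 1 in all 5 genes, by 0.36 (Pcbd1) to 0.85 (Map2). Over all genes the share with replicate 2 higher was 48.9%, and over the 60 genes whose smaller rise was at least 1 it was 63.3% (38 genes). Myd88 itself differed by little between these arrays, at 12.25 and 12.31. The SD between replicates was 0.26 to 0.60 in MYD88_L265P, 0.04 to 0.17 in IKK_K171E and 0.04 to 0.13 in EV, so the high group was also the least uniform one for each of the 5 genes. The SEs given for these genes pool the 3 groups and are drawn towards the value common to all features, and so understate the spread of the MYD88_L265P arrays. With 2 arrays per group, an SE without that second step would equal the residual SD. The residual SD and the SE ran from 0.16 and 0.13 for Pcbd1 to 0.35 and 0.24 for Map2.

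**Figure D2:**
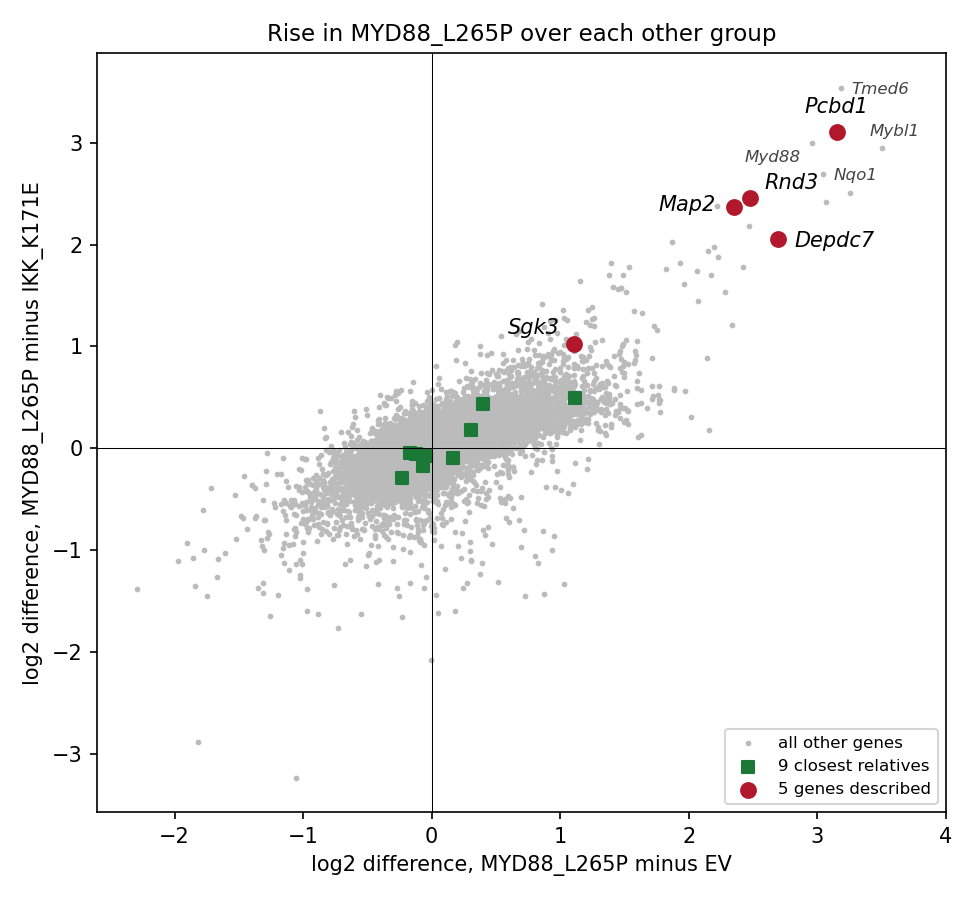
Each point is a gene, placed by its log2 difference of MYD88_L265P minus EV (horizontal) and of MYD88_L265P minus IKK_K171E (vertical), with the 5 genes described in red and their 9 closest relatives as green squares. Pcbd1, Rnd3, Map2 and Depdc7 lie in the sparse upper right corner with Tmed6, Myd88, Mybl1 and Nqo1, Sgk3 lies at 1.11 and 1.02 at the edge of the main cloud, and the relatives lie within it.

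The closest relatives of the 5 genes were read in the same arrays. Of 9 relatives, Map4, a microtubule-associated protein of most tissues, was the 1 called in MYD88_L265P over EV, where 16.6% of all features were called, and 0 were called over IKK_K171E, where 1.75% were (1 at an unadjusted p under 0.05). Pcbd2, the second dehydratase of the Pcbd pair, had a log2 signal of 10.66 and 10.56 in MYD88_L265P and 10.51 and 10.38 in EV, a difference of 0.17 (SE 0.09, limma adjusted p = 0.221). Rnd1 and Rnd2, the other Rnd GTPases, differed from EV by -0.07 and -0.04. Sgk1 and Sgk2 differed by -0.23 and -0.17, and Mapt, the microtubule-binding protein tau of axons, by -0.13. Depdc1a, a DEP domain gene of dividing cells, had a difference of 1.11 (SE 0.42, adjusted p = 0.101), with EV arrays at 9.50 and 7.97, and Depdc1b had 0.40 (adjusted p = 0.208). The Map4 difference of 0.31 had an adjusted p of 0.0488, which became 0.0568 with the replicate number as a block and 0.278 under quantile normalization.

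The genes around Pcbd1, Depdc7, Map2 and Sgk3 in the pathways named above were then examined from lists that leave the 5 genes out. Of 69 listed genes with a feature, limma called 7 up and 6 down in MYD88_L265P relative to EV, with Benjamini-Hochberg adjustment over all features, beside 9.32% and 7.33% of all features. The corresponding counts were 3 higher and 0 lower over IKK_K171E, beside 0.873% and 0.877%, and 0 higher and 0 lower in IKK_K171E over EV, beside 0.956% and 0.413%. At an unadjusted p under 0.05 the last counts were 7 higher and 7 lower over IKK_K171E, and 4 higher and 6 lower in IKK_K171E over EV. Shifting all arrays to a common median turned the split of all features into 2582 higher and 739 lower over EV, against 2007 and 1579 as deposited, and into 255 and 129 over IKK_K171E, against 188 and 189.

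In tetrahydrobiopterin metabolism, the pathway of Pcbd1, 1 of 13 measured genes rose and 2 fell in MYD88_L265P over EV. Of all features, 9.32% were called higher there and 7.33% lower. Gch1, the rate-limiting enzyme of tetrahydrobiopterin synthesis, had a log2 signal of 9.35 and 9.53 in MYD88_L265P, 8.75 and 8.71 in IKK_K171E, and 8.90 and 8.95 in EV. Both MYD88_L265P arrays were above the others, and Gch1 rose over EV by 0.52 (SE 0.10, adjusted p = 0.0166) and over IKK_K171E by 0.71 (adjusted p = 0.0196). Gchfr, whose product is the feedback regulator of that enzyme, fell by 0.37 over EV (adjusted p = 0.0379). Th, the tyrosine hydroxylase of catecholamine-making cells and a user of the cofactor, fell by 0.44 (adjusted p = 0.0286). Both of these calls ended when the arrays were shifted to a common median (adjusted p = 0.0931 and 0.0539). The later enzymes of synthesis and recycling, Pts, Spr and Qdpr, had differences of -0.22, -0.10 and 0.05 and were not called. The median of the list was -0.10, against -0.11 over all genes.

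Among the CARD, BCL10 and MALT1 complexes that Depdc7 is linked to, together with other DEP domain genes, 0 of 16 measured genes were called higher in MYD88_L265P over EV and 1 lower (1 and 3 at an unadjusted p under 0.05). The called shares of all features were 9.32% and 7.33%. Malt1, the paracaspase of the complex, had a log2 signal of 11.25 and 11.24 in MYD88_L265P, 11.45 and 11.57 in IKK_K171E, and 11.75 and 11.76 in EV. The 3 groups did not overlap, and Malt1 fell by 0.51 over EV (SE 0.09, adjusted p = 0.0138). Card10 and Card14, which encode the scaffolds CARMA3 and CARMA2, differed by -0.23 and -0.18 (adjusted p = 0.109 and 0.160), and Bcl10 by -0.26 (adjusted p = 0.137). The median was -0.16.

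Among microtubule-associated proteins and their partners, the family of Map2, 5 of 18 measured genes rose and 1 fell in MYD88_L265P over EV. These counts stand beside 9.32% of all features called higher and 7.33% called lower. Prkar2a and Prkar2b encode the type II regulatory subunits of protein kinase A, which MAP2 binds. Prkar2a had a log2 signal of 9.85 and 9.70 in MYD88_L265P, 9.50 and 9.16 in IKK_K171E, and 8.72 and 8.29 in EV, and rose by 1.27 over EV (SE 0.17, adjusted p = 0.00761). Prkar2b had 7.85 and 8.06 in MYD88_L265P, 7.25 and 7.19 in IKK_K171E, and 7.33 and 7.37 in EV, and rose over EV by 0.60 (adjusted p = 0.0131) and over IKK_K171E by 0.73 (adjusted p = 0.0216). For Prkar2a the IKK_K171E arrays lay between the other groups, with a difference of 0.83 over EV that missed the threshold (adjusted p = 0.0695), and for Prkar2b they lay below both EV arrays. Mapre1, which tracks growing microtubule ends, rose by 0.53 over EV (adjusted p = 0.0271). Map9, a microtubule-associated protein of the spindle, rose by 0.42 over EV (adjusted p = 0.0280), beside Map4. Mapre1 and Map9 differed by 0.33 and 0.26 in IKK_K171E over EV. Over IKK_K171E their differences of 0.20 and 0.16 missed the threshold (adjusted p = 0.364 and 0.376). Dcx, doublecortin of young neurons, fell by 0.42 over EV (adjusted p = 0.0321), a call that ended with a common median (adjusted p = 0.0700). The median was 0.03.

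In the list of SGK and AKT kinases with their regulators and substrates, 1 of 22 measured genes rose and 2 fell in MYD88_L265P over EV. Again 9.32% of all features were called higher and 7.33% lower. Pik3c2a, a class II phosphoinositide 3-kinase that makes lipids of the kind Sgk3 binds, had a log2 signal of 10.64 and 10.61 in MYD88_L265P, 10.06 and 10.02 in IKK_K171E, and 10.00 and 10.06 in EV. It rose over EV by 0.59 (SE 0.08, adjusted p = 0.00857) and over IKK_K171E by 0.58 (adjusted p = 0.0254), and IKK_K171E and EV overlapped. Pik3c2b, the other widely expressed class II kinase, fell by 0.71 over EV (adjusted p = 0.0154). It also differed by -0.56 in IKK_K171E over EV (adjusted p = 0.0863), and by -0.15 in MYD88_L265P over IKK_K171E (adjusted p = 0.506). Inpp4b, a phosphoinositide phosphatase, fell by 0.63 over EV (adjusted p = 0.0173), and over IKK_K171E its difference of -0.42 missed the threshold (adjusted p = 0.138). The median was -0.08. Calls in these lists changed when an array was left out. Of the 13 genes called in MYD88_L265P over EV, 1 was still called without MYD88_L265P replicate 1, 0 without MYD88_L265P replicate 2, 3 without EV replicate 2, 9 without EV replicate 1 and 12 without either one of the IKK_K171E arrays. Of the 3 called over IKK_K171E, 0 were still called when any 1 array of MYD88_L265P or of IKK_K171E was left out, and 3 without either one of the EV arrays.

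**Figure D3:**
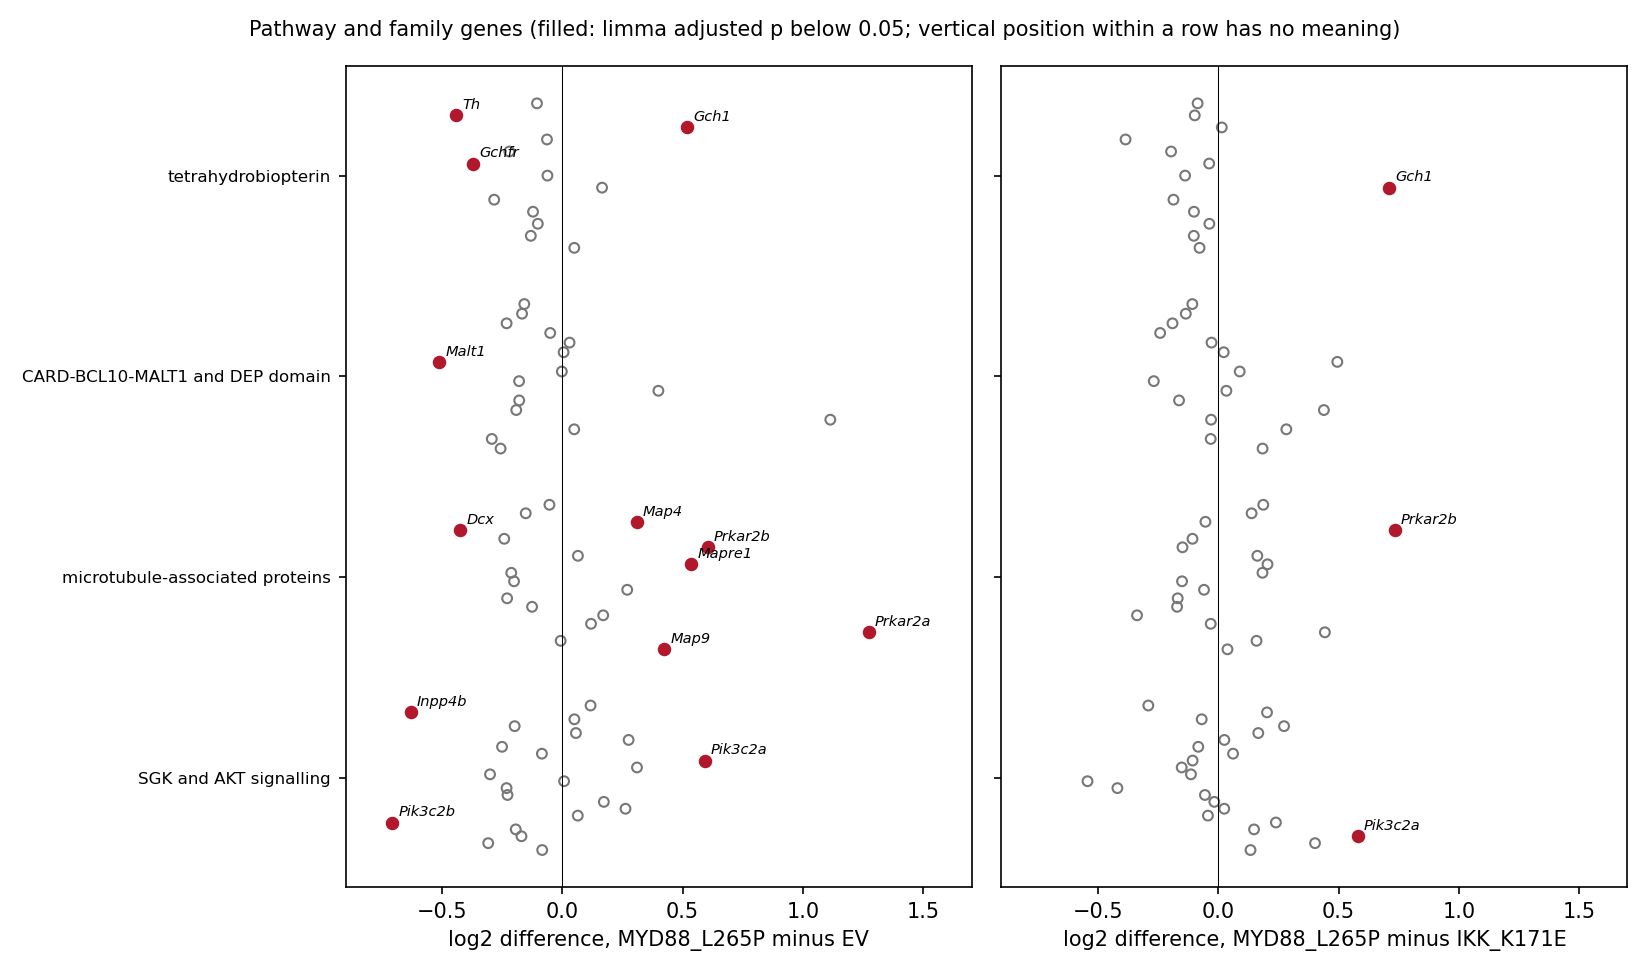
Log2 differences of the listed pathway and family genes in MYD88_L265P minus EV (left) and MYD88_L265P minus IKK_K171E (right), 1 row per list, with filled points for genes past the limma adjusted p threshold of 0.05 and open points for the others. Gch1, Prkar2b and Pik3c2a are filled on the right side of 0 in both panels, and most genes of every list are open and near 0.

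Map2 marks neurons and Rnd3 is well known from fibroblasts, so markers of other cells were read beside them. Of 6 neuronal markers 0 were called higher and 1, Dcx, lower in MYD88_L265P over EV, beside 9.32% and 7.33% of all features, and of 5 fibroblast markers 0 were called (0 higher and 4 lower at an unadjusted p under 0.05). The mean log2 signal of the neuronal markers was 7.14 to 7.24 in MYD88_L265P arrays, 7.33 to 7.38 in IKK_K171E and 7.35 in both EV arrays, and that of the fibroblast markers 7.58 to 7.64, 7.65 to 7.81 and 7.83 to 7.85. Of 5 monocyte and macrophage markers 0 were called higher and 1 was called lower in MYD88_L265P over EV, with means of 8.92 to 9.17, 9.58 to 9.75 and 9.19 to 9.34 in the same order of groups. These 5 went different ways over EV: Adgre1, the one called, by -1.78, Cd14 by -0.03, Itgam by 0.09, and Csf1r and Lyz2 by 0.30 each. Lyz2 stood at 11.94 and 11.70 in MYD88_L265P and at 11.09 and 11.95 in EV. Of 5 T cell markers 3 were called lower (means of 7.46 to 7.58, 8.06 to 8.24 and 7.92 to 7.96), and of 3 NK cell markers 1 was called lower (6.20 to 6.28, 6.45 to 6.74 and 6.58 to 6.73). Alas2, the 1 erythroid marker with a feature, differed by -0.18 and was not called. None of the markers of these 6 other cell types was called higher in the MYD88_L265P arrays, in which the 5 genes were high, than in EV, and the part of other cells in the signal of the 5 genes was not tested otherwise. In bulk RNA of sorted cells, fewer cells of a type and less RNA per cell cannot be told apart.

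Likeness between profiles over the 6 arrays was measured as the root mean square difference of log2 signals, each gene first centred on its own mean. Among the 5 genes Rnd3 and Map2 were closest, at 0.15, and each was the other's nearest gene among all genes. Sgk3 was farthest from the rest, at 0.63 to 0.97, and its own profile spanned least. The measure is not scaled, so it reflects the size of a profile as well as its shape. The root mean square of the centred profile itself was 0.52 for Sgk3 and 1.48 for Pcbd1. Distances of genes with unlike spans are therefore not comparable. The nearest genes to Pcbd1 were Myd88 (0.13), Tmed6 (0.23), of the TMED cargo receptors of the early secretory pathway, and the quinone oxidoreductase gene Nqo1 (0.29). The nearest to Depdc7 were Gnat3 (0.22), a G protein alpha subunit of taste cells, Chac2 (0.23), a glutathione-degrading enzyme, and Shtn1 (0.24), a cytoskeletal protein of growing axons. Chac2 was also second to Map2 (0.22) and, after Map2, to Rnd3 (0.26), and its log2 signal was 9.67 and 10.40 in MYD88_L265P, 8.10 and 8.02 in IKK_K171E, and 8.03 and 7.66 in EV. The third places fell to Nqo1 for Rnd3 (0.28) and to Gnat3 for Map2 (0.26). Gm24148 (0.07), Krt222 (0.08) and Tanc2 (0.09) were nearest to Sgk3. These genes were picked out of all genes for their likeness, so the values describe the profiles and carry no test.

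**Figure D4:**
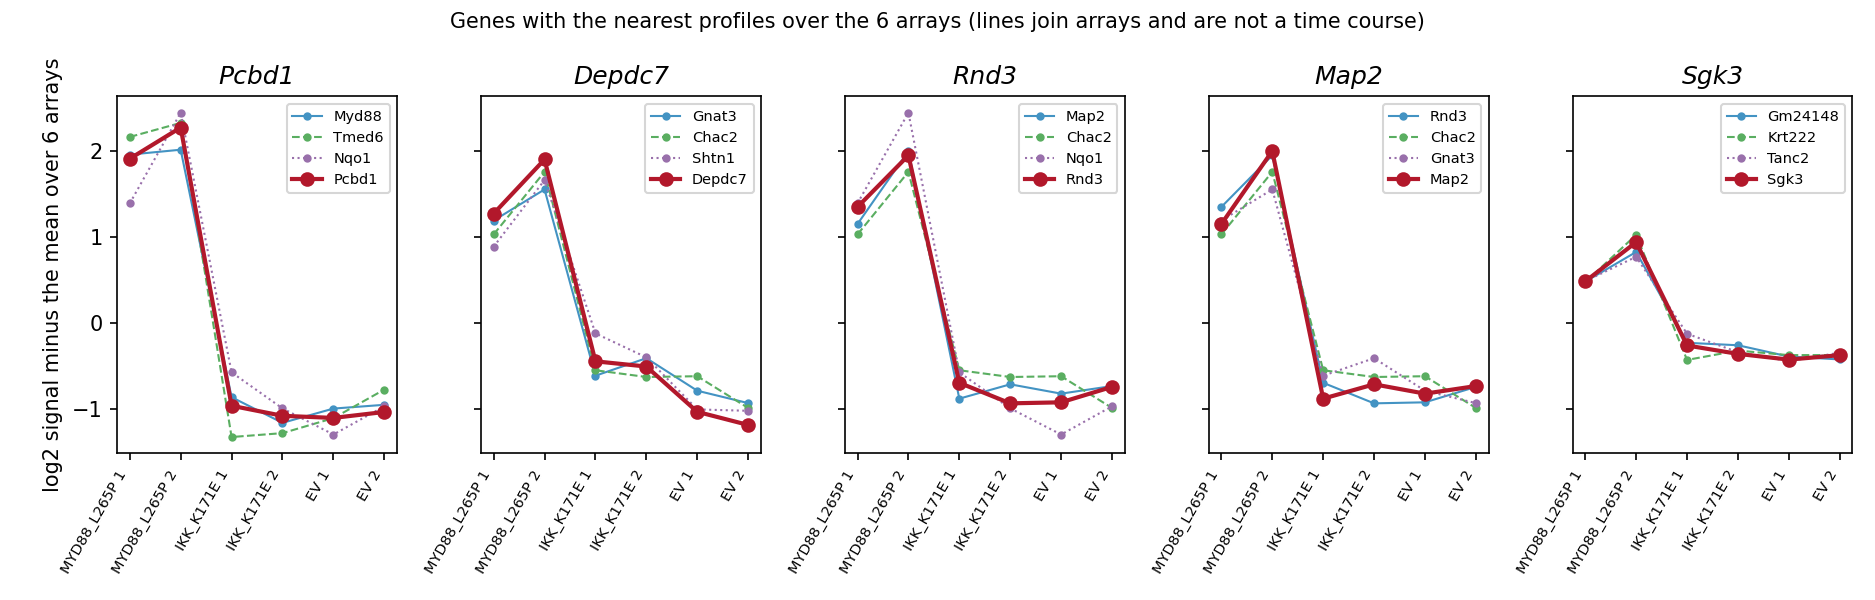
Log2 signal minus the gene's mean over the 6 arrays for each of the 5 genes (thick red) and the 3 genes with the nearest profile, over MYD88_L265P, IKK_K171E and EV replicates from left to right. Map2 and Rnd3 run together at a root mean square difference of 0.15, Depdc7 is the one whose IKK_K171E points sit clearly above its EV points, and Sgk3 has the smallest span.

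The genomic neighbours of the 5 genes were compared, taking the nearest measured gene on each side in the RefSeq order. Of the 10 neighbours 1 was called higher in MYD88_L265P over EV and 0 lower, beside 9.32% and 7.33% of all features. By limma 0 were called over IKK_K171E (4 at an unadjusted p under 0.05), where 1.75% of all features were called, or in IKK_K171E over EV (1 at an unadjusted p under 0.05), where 1.37% of all features were called. The one was Mcmdc2, an MCM domain gene of meiotic recombination that follows Sgk3 on chromosome 1. Its log2 signal was 7.73 and 8.10 in MYD88_L265P, 7.27 and 7.31 in IKK_K171E, and 7.21 and 7.38 in EV. It rose by 0.62 over EV (SE 0.14, adjusted p = 0.0269), and over IKK_K171E the difference of 0.63 missed the threshold (adjusted p = 0.0799). On the other side of Sgk3, Vcpip1, a deubiquitinase gene, stood at 10.64 and 10.68 in MYD88_L265P and 10.83 and 10.62 in EV (-0.07, adjusted p = 0.646). The gene beyond Vcpip1 is Mybl1, a MYB family transcription factor, so that 1 protein-coding gene lies between it and Sgk3. Mybl1 had 11.10 and 11.72 in MYD88_L265P, 8.51 and 8.41 in IKK_K171E, and 8.50 and 7.30 in EV, and stood at place 4 by the smaller rise. Mybl1 falls outside the rule of the nearest gene and is named for its own rise. Genes at that distance from the other members were not read, so a link with its place was not tested. Beside Pcbd1, Sgpl1, the sphingosine phosphate lyase, differed by 0.19 (adjusted p = 0.399), beside Depdc7, Qser1 by 0.40 (adjusted p = 0.0693), and beside Map2, the ion channel gene Unc80 by -0.21 (adjusted p = 0.133). The remaining 5 neighbours, Pldi, Gm6306, Gm13498, Tas2r134 and Crygf, differed by -0.24 to -0.01.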

How the data were processed

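The deposited values are log2 expression per array feature, made by the authors from 6 arrays of mouse B cells. Per the submitters' processing notes oligo and limma were used, and the background correction, normalization, build and tool versions are not given in the sources used here. Its 24743 features range from 2.55 to 14.5, with medians between 8.03 and 8.13 and no detection call, and no value was changed. Features with exactly 1 gene symbol in the platform annotation were tested (21542 of 19818 genes; 1522 had several symbols and 1679 none), and a gene was represented by its brightest feature.

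Group means of all 6 arrays were fitted with limma 3.58.1 in R 4.3.3 (3 residual and 4.17 prior degrees of freedom), and a feature was called at a two-sided Benjamini-Hochberg adjusted p below 0.05. The procedure was tested on simulated data. The 5 genes, the lists and the tests were chosen with earlier results of these data known. Named genes were the 5 with their 3 nearest profiles, the genes of largest smaller rise, 9 relatives, called list genes (up to 5 per list by size; the sixth called microtubule gene, Map4, is also a relative), neighbours and the transduced genes. Listed genes without a feature of their own (10) were not analysed here, and 1 further list is not reported here. Alternatives changed the normalization (quantile, common median), the model (replicate block, variance trend, array weights), the features and groups fitted, and left each array out. Promoter windows and gene order are from RefSeq GRCm38.p6.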

Additional observations from a re-analysis of the deposited data

How the results depend on the processing

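With any 1 array left out, the differences of the 5 genes in MYD88_L265P over EV and over IKK_K171E kept their direction. No other result was possible, since both MYD88_L265P arrays lay above all 4 other arrays. Under quantile normalization the differences kept their direction and moved by no more than the residual SD. A common median moves the differences of all genes by the same amount, and array weights left those of the 5 genes unchanged. Neither is therefore a check on these genes. The replicate block cannot move a difference of group means in this balanced design (2.35 for Map2 and 3.16 for Pcbd1 over EV), and each of the 5 genes has 1 feature, so that neither the block nor averaging a gene's features bears on these differences. Leaving out 1 array in turn gave, in MYD88_L265P over EV, 2.98 to 3.34 for Pcbd1, 2.38 to 3.01 for Depdc7, 2.18 to 2.78 for Rnd3, 1.93 to 2.77 for Map2 and 0.88 to 1.34 for Sgk3. Over IKK_K171E the ranges were 2.93 to 3.29, 1.75 to 2.37, 2.16 to 2.76, 1.94 to 2.79 and 0.79 to 1.25. In IKK_K171E over EV they were -0.01 to 0.11, 0.56 to 0.71, -0.10 to 0.14, -0.10 to 0.06 and 0.04 to 0.14, so that the sign was fixed for Depdc7 and Sgk3 and not for the other 3.

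Of all features, 295 were called in IKK_K171E over EV, against 626 with the replicate block, 487 with a variance trend, 131 with all features tested, 123 with array weights and 51 with only these 2 groups fitted, and 0 to 506 with an array left out. MYD88_L265P over IKK_K171E gave 377, 592 with only these groups fitted, and 14 to 592 with an array left out. MYD88_L265P over EV gave 3586 and 191 to 3554. Of the list genes, 0 were called by limma in IKK_K171E over EV (10 at an unadjusted p under 0.05), 1 with the replicate block and 1 under quantile normalization, and 0 to 2 with an array left out. In MYD88_L265P over EV 13 were called, and 0 to 13 with an array left out, and over IKK_K171E 3, and 0 to 4. Fewer arrays leave fewer residual degrees of freedom, and a lone array is assumed to vary like the other groups. The replicate numbers are those of the sample descriptions, without a stated pairing. The titles number the arrays 1 and 3 in MYD88_L265P and IKK_K171E and 2 and 3 in EV, so that replicate 1 of EV has another number there than replicate 1 of the other groups, and the values with the replicate block, here and for Map4, and the correlations rest on the descriptions. Deviations of arrays with the same number correlated across features at 0.10 to 0.21 between groups. Signal close to background cannot be told from absence in these files.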
